A study of Mus musculus with 12 samples.

Results

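The 41 genes described here are the matrix metalloproteinases (MMP), the ADAM proteases and the ADAMTS and ADAMTS-like proteins that had values on the arrays. They were taken by symbol, Mmp or Adam followed by a digit, or Adamts, and they are 41 of 11229 named genes, measured by 50 of 16664 probes. Fallopian tubes, the mouse oviducts, were taken from 3 wildtype C57BL6 females and 3 mogp-TAg females, 1 of each genotype at each age (7, 8 and 9 weeks). The labels give C57BL6 as the background of both genotypes. The mogp-TAg mouse carries the SV40 large T antigen under the oviductal glycoprotein promoter, which secretory cells of the tube use, and large T antigen binds and inactivates RB and p53. Whole tubes were profiled as total RNA on 1-colour bead arrays, 2 arrays for each mouse, so no value is specific to the epithelium that carries the transgene. The design sets transgenic against wildtype tubes, and the question here is which of these proteases differed.

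MMPs, ADAMs and ADAMTS proteins are zinc proteases made as inactive zymogens, in which a prodomain covers the active site until it is cut off. MMPs degrade collagens, basement membrane and other matrix proteins. ADAMs are membrane-bound and release the outer parts of growth factors, cytokines and receptors from the cell surface, and several of them lack a working active site and serve in adhesion. ADAMTS proteins are secreted and cut proteoglycans and procollagens, while the ADAMTS-like proteins have no protease domain. The TIMP proteins inhibit most of these enzymes. In the reproductive tract they are known for the matrix turnover of the cycle and of ovulation.

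A further 24 genes of the families are listed on the arrays with a blank for every probe on every array, 5 of them MMPs, 14 ADAMs and 5 ADAMTS genes. Mmp8, Mmp19 and Adamts13 are among them, and they were not analysed here. No source used here says why, so counts over the 41 genes are not counts over the families. A signal is the brightness of a probe after quantile normalization, shown for each mouse as the mean of its 2 arrays on the log2 scale, and signals of different probes were not compared as levels. The median unnormalized signal of an array ran from 245 to 332 in repeat 1 and from 137 to 190 in repeat 2, so all repeat 2 arrays were dimmer. Of the 41 genes, 12 had a mean below 125, the 25th percentile of all tested probes, in both genotypes, 3 in wildtype alone and 4 in transgenic alone. Signals below it are called near the floor. No background was subtracted here, and whether the deposited values had it subtracted is not given.

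Of the 41 genes, 10 lie on chromosome 9, and 6 of these are MMPs of 1 cluster, whose measured genes lie in the order Mmp13, Mmp12, Mmp3, Mmp1a, Mmp10 and Mmp7. The promoters of this cluster are shown because 2 of its genes, Mmp10 and Mmp7, are among the 4 that rose. The sequences come from RefSeq (GRCm38.p6) and give the 100 bases before the annotated start, 5′ to 3′ on the strand of the gene. Capitals mark TGANTCA, the site of the AP-1 factors, and TATAAA, the TATA box.
Mmp7, chr9:7691990-7692089, + strand: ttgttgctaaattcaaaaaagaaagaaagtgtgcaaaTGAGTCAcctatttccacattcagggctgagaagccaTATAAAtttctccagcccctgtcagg
Mmp10, chr9:7502242-7502341, + strand: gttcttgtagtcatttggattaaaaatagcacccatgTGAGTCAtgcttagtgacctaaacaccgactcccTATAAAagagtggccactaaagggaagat
Mmp3, chr9:7445722-7445821, + strand: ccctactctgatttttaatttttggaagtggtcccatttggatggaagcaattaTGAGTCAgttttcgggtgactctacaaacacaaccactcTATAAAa
Mmp12, chr9:7347274-7347373, + strand: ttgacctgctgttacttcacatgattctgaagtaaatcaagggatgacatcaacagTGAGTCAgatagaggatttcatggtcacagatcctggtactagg
Mmp1a, chr9:7464041-7464140, + strand: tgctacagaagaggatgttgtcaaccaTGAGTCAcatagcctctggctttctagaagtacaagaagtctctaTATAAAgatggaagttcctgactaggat
Mmp13, chr9:7272414-7272513, + strand: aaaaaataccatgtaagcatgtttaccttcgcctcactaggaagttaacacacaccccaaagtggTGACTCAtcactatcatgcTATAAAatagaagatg

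Each of the 6 promoters holds 1 TGANTCA in these bases, and 5 of the 6, all but Mmp12, also hold a TATAAA downstream of it. Mmp7 and Mmp10 both have the first base of TGAGTCA 63 bases before the start, with TATAAA at 26 and 29 bases. Mmp7 and Mmp12 have 2 annotated starts each, and the one that holds TGANTCA is shown. For Mmp12 the start shown lies inside the gene, which begins at base 7344397. A window of 250 bases before the start was found for 22 of the 41 genes, matched by symbol. In it, 7 of 22 genes (31.8%) held TGANTCA, which reads the same on both strands, against 7.82% of all 27025 genes with a window. Of these 7 genes 6 are those of the cluster, so the share describes the cluster and not the 22 genes at large. TATAAA on the strand of the gene was held by 7 of the 22 (31.8%) and by 8.94% of all, and on either strand by 7 of the 22 and 14.3% of all. The 5 cluster genes with TATAAA are among these 7. Both in 1 window were held by 5 of the 22 (22.7%), the cluster genes just named, and by 0.944% of all. Mmp3, Mmp1a and Mmp13 hold the same pair of motifs as Mmp7 and Mmp10 and did not pass the test. A match of letters is a description and not a bound site.

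The labelled tissue was checked first. Ovgp1, the oviductal glycoprotein gene, had signals of 23026, 22353 and 23114 in the wildtype mice of 7, 8 and 9 weeks and 18938, 20773 and 18541 in the transgenic mice. Markers of several cell types differed with genotype: 8 of 8 measured ciliated cell markers and 10 of 11 smooth muscle markers were lower in transgenic tubes, and 7 of 7 proliferation genes were higher. The summed signal of the ciliated list was 10404 to 12894 in wildtype and 2775 to 4437 in transgenic mice. For smooth muscle it was 61327 to 67534 and 40170.1 to 47768. For mesothelium, with 6 of 7 markers lower, it was 7777 to 9924 and 3878 to 4481. For endothelium, with 4 of 7 lower, it was 4329.5 to 5143 and 2531 to 3576. For macrophages, with 5 of 9 higher and 2 lower, it was 5385 to 6329 and 7868 to 12025. For fibroblasts, with 1 of 10 higher and 3 lower, it was 29307 to 37655 and 26899 to 30252. For adipocytes, with 2 of 5 lower, it was 2117 to 2375 and 685 to 1249.7. For lymphocytes, with 1 of 6 higher, it was 705 to 732 and 867 to 939. For oviduct secretory cells, a list that includes Ovgp1, 2 of 6 markers were higher and 1 lower. Its sum was 29477 to 34614 in wildtype and 31905 to 37029 in transgenic mice, so the ranges overlapped. Neutrophil markers summed to 20493 to 22319 and 22629 to 38272, with 0 of 10 past the threshold by limma and 1 at an unadjusted p below 0.05. No marker has a value of 0 on these arrays. In whole tubes, fewer cells of a type and less RNA per cell cannot be told apart, and the part of these cell types in the protease results was not tested.

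Among the 41 genes, 4 rose and 7 fell in the transgenic tubes, at an adjusted p below 0.05 by limma over all probes. The 11 genes are 26.8% of the 41, near the 22.9% of all named genes that were called. The rises were those of Adam33, Mmp10, Mmp7 and Adamts16, and 10.4% of all genes rose. The falls were those of Mmp23, Adam28, Mmp17, Adam15, Adam23, Adamtsl2 and Adamts15, and 12.5% of all genes fell. The median log2 difference of the 41 genes was -0.021, against -0.016 over all named genes. The 11 differences lay between a fall of 2.31-fold and a rise of 1.82-fold. At an unadjusted p below 0.05 there were 20 of the 41, beside 37.2% of all genes. The mice of the genotypes did not overlap for 21 of the 41 genes (51.2%), against 41.1% of all named genes. The counts of the 41 genes and of all genes fell when some single mice were left out. With the 8-week transgenic mouse left out 2 rose and 2 fell (9.76% of the 41 beside 11.6% of all genes). Leaving out the 9-week mouse of either genotype gave 2 and 3 (12.2%). Beside this, 14.8% of all genes were called without the 9-week wildtype mouse and 16.8% without the 9-week transgenic mouse. Leaving out the 7-week wildtype mouse gave 3 and 3 (14.6% beside 16.1% of all genes). Without repeat 2 of the 7-week transgenic mouse, whose repeats differed for several genes, 5 rose and 10 fell, which is 36.6% of the 41 beside 21.5% of all genes.

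**Figure D1:**
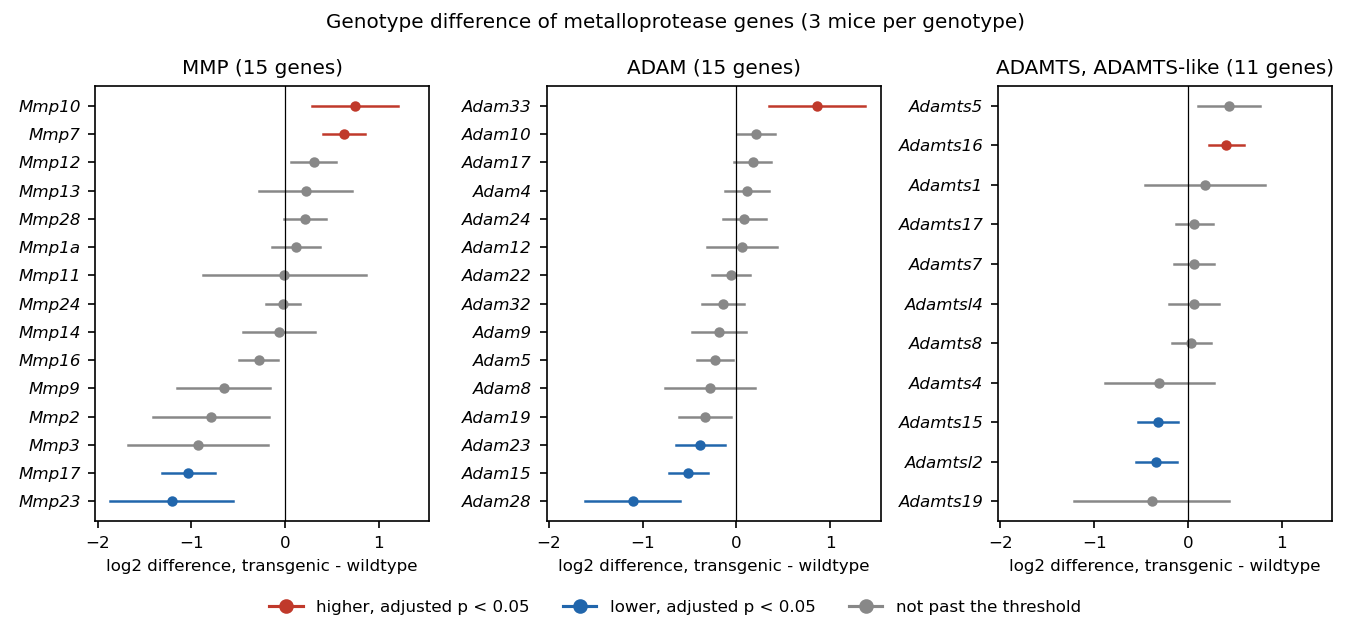
Log2 difference between transgenic and wildtype tubes (x axis) for the 41 genes, in panels for MMP, ADAM and ADAMTS with ADAMTS-like genes. Points are the limma estimates over 3 mice per genotype and bars their 95% confidence intervals; red and blue mark the 4 genes higher and the 7 lower at an adjusted p below 0.05, and Mmp23 and Adam33 stand at the ends.

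The secreted MMPs of the stromelysin and matrilysin group held both of the MMP genes that rose. Of its 5 genes 2 were called (40%, beside 22.9% of all genes). Mmp7, matrilysin, is a small MMP made by glandular epithelium. Its signal was 106, 108 and 112 in the wildtype mice and 157, 188 and 161 in the transgenic mice (7, 8 and 9 weeks in this order throughout). All transgenic mice lay above all wildtype mice, and the wildtype signals lay near the array floor. The rise was 1.55-fold (log2 0.63 with an SE of 0.096 over 3 mice a genotype, limma adjusted p = 0.00427). It passed with any 1 mouse left out. Mmp10, stromelysin 2, degrades proteoglycans and activates other MMPs, and its signal was 280.4, 165 and 248 in the wildtype mice and 397, 404 and 335 in the transgenic mice. The genotypes did not overlap, and the 8-week wildtype mouse was the lowest. The rise was 1.67-fold (log2 0.74, SE 0.20, limma adjusted p = 0.0344). It did not pass without the 9-week wildtype mouse or without any 1 of the transgenic mice (log2 0.69 to 0.83, limma adjusted p = 0.0566 to 0.124).

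The other 3 genes of the group did not pass. For Mmp3, stromelysin 1, the signal was 207, 132 and 362 in the wildtype mice and 119, 108 and 112 in the transgenic mice. The wildtype mice differed from one another by more than the transgenic mice did, all transgenic mice lay lower and near the floor, and the difference was log2 -0.93 (SE 0.32, limma adjusted p = 0.0810; 0.0257 with the repeat number as a block). Its other probes differed by -0.59 and -0.33. Mmp12, the macrophage elastase, lay near the floor in all mice, with signals of 84.3, 90.0 and 93.3 and 124, 104 and 103. Its groups did not overlap, the transgenic mice being higher by log2 0.31 (limma adjusted p = 0.0741; 0.0270 with the repeat number as a block). Of 9 macrophage markers 5 were higher and 2 lower in the same mice, and their part in the Mmp12 values was not tested. Mmp11, stromelysin 3, an MMP of stromal cells, had signals of 251, 176 and 553 in wildtype and 319, 264 and 284 in transgenic mice. The 9-week wildtype mouse was the highest of the 6 and the 8-week wildtype mouse the lowest, and the 95% interval of the log2 difference was wide (-0.88 to 0.86).

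**Figure D2:**
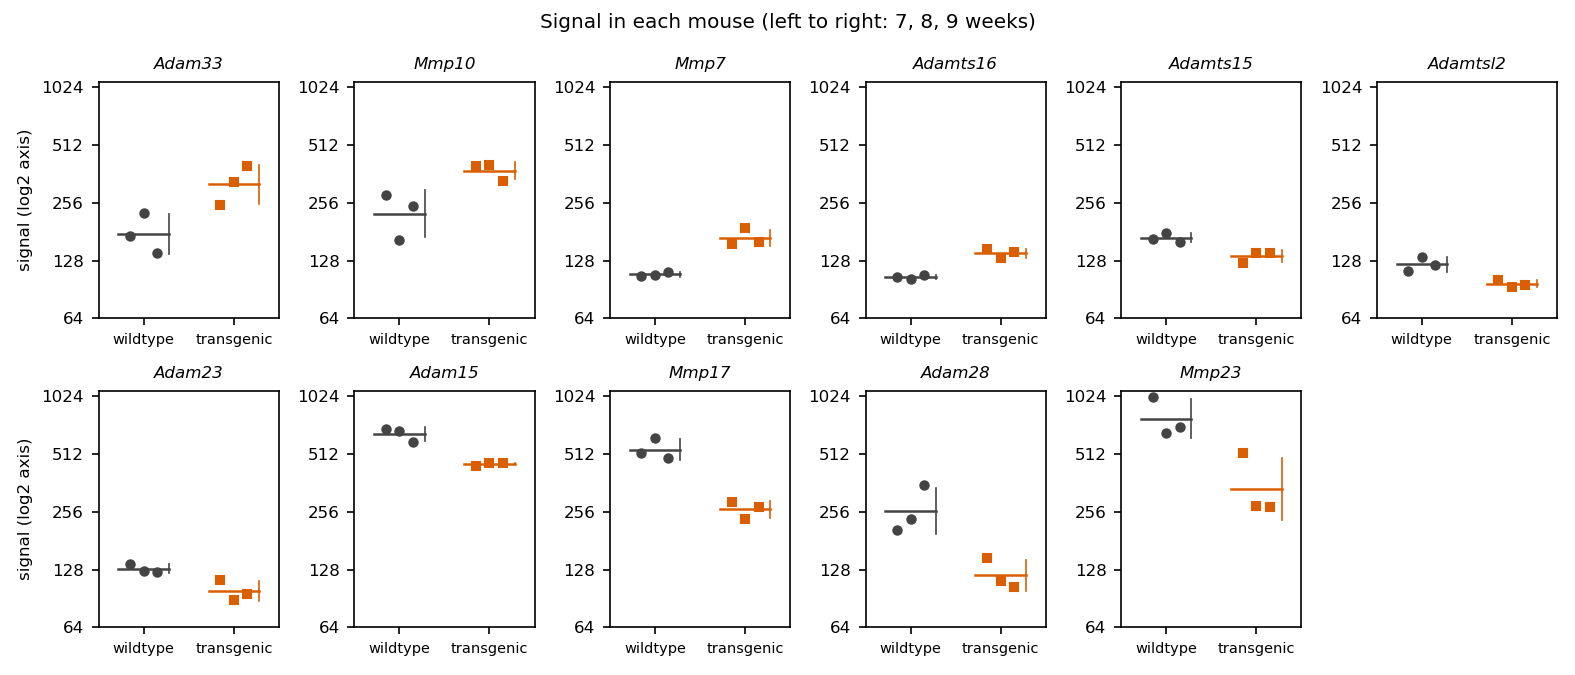
Signal of each mouse (log2 axis) for the 11 genes that passed, from the highest to the lowest difference; dots are wildtype and squares transgenic mice, from left to right at 7, 8 and 9 weeks, with the mean of the log2 signals as a line and 1 SD as a bar (n = 3). The genotypes do not overlap in any panel.

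Of 4 measured collagenases and gelatinases, 0 passed by limma (beside 22.9% of all genes), with 2 at an unadjusted p below 0.05 (beside 37.2% of all). Both were gelatinases, which cut denatured collagen and collagen IV of basement membranes. Mmp2, gelatinase A, is made by stromal cells, and its signal was 3202, 1932 and 3154 in the wildtype mice and 2196, 1305 and 1309 in the transgenic mice. The 7-week transgenic mouse lay above the 8-week wildtype mouse, so the groups overlapped, and the log2 difference was -0.79 (95% interval -1.41 to -0.17, limma adjusted p = 0.0726). The 7-week transgenic value came from 2 unlike arrays, 1492 in repeat 1 and 3231 in repeat 2. Without that repeat 2 the difference of Mmp2 passed (log2 -0.98, limma adjusted p = 0.0128). It also passed when the 7-week transgenic mouse (log2 -1.04, limma adjusted p = 0.0206) or the 8-week wildtype mouse (log2 -1.03, limma adjusted p = 0.0275) was left out, and in all in 7 of 21 alternatives. Mmp9, gelatinase B, a protease of neutrophils and macrophages among others, had signals of 342, 262 and 304 in wildtype and 228, 226 and 135 in transgenic mice. All transgenic mice lay lower, the 9-week mouse by the most, and the log2 difference was -0.66 (limma adjusted p = 0.0675; 0.0347 with the repeat number as a block and 0.0299 without repeat 2 of the 7-week transgenic mouse). Mmp13 (log2 0.22, limma adjusted p = 0.505) and Mmp1a (log2 0.12, limma adjusted p = 0.496), the collagenases, overlapped between genotypes.

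The membrane-type MMPs act at the cell surface, and 1 of the 4 measured fell (25%, beside 22.9% of all genes called). Mmp17, which is held by a lipid anchor, had the lowest adjusted p of all 41 genes. Its signal was 521, 621 and 489 in the wildtype mice and 287, 236 and 272 in the transgenic mice. The genotypes stood well apart, with a fall of 2.05-fold (log2 -1.03, SE 0.12, limma adjusted p = 0.00141), which passed in all 21 alternatives. Mmp14, the membrane-bound activator of the Mmp2 zymogen, was bright in every mouse, at 4121, 2998 and 4088 in wildtype and 4149.6, 3509 and 3037 in transgenic mice. These ranges overlapped, and the 95% interval of the log2 difference ran from -0.45 to 0.32. For Mmp16 the log2 difference was -0.28 (limma adjusted p = 0.0615) and for Mmp24 -0.021 (limma adjusted p = 0.883), both near the floor in the transgenic mice.

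In the remaining pair of MMPs, Mmp23 had the largest fall of the 41 genes. Mmp23, which is made as a membrane protein but is not counted among the membrane-type MMPs, is without the common cysteine switch of the prodomain, and its signal was 1022, 658 and 712 in the wildtype mice and 521, 274 and 272 in the transgenic mice. The 7-week mouse was the highest within each genotype, and the groups did not overlap. The fall was 2.31-fold (log2 -1.21, SE 0.28, limma adjusted p = 0.0218). It did not pass without the 7-week or the 9-week wildtype mouse, or without the 8-week or the 9-week transgenic mouse (log2 -1.28 to -1.02, limma adjusted p = 0.0534 to 0.0911). Mmp28, epilysin, lay near the floor in all mice, with a log2 difference of 0.21 (limma adjusted p = 0.167).

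Of the 9 somatic ADAMs that keep a catalytic site, 1 rose and 2 fell (33.3%, beside 22.9% of all genes). Adam33, known in humans as an asthma susceptibility gene of airway smooth muscle and fibroblasts, had the largest rise of the 41 genes, and its signal was 172, 227 and 140.3 in the wildtype mice and 249, 328 and 400.3 in the transgenic mice. The lowest transgenic mouse, that of 7 weeks, lay above the highest wildtype mouse, that of 8 weeks. The rise was 1.82-fold (log2 0.86, SE 0.22, limma adjusted p = 0.0309). In the same tubes 10 of 11 smooth muscle markers were lower, and of 10 fibroblast markers 1 was higher, Mfap5 (log2 1.39), and 3 lower. The part of these cells in the Adam33 values was not tested. It did not pass without the 7-week or the 9-week wildtype mouse, or without the 8-week or the 9-week transgenic mouse (log2 0.70 to 0.84, limma adjusted p = 0.0831 to 0.108). Adam28, a protease known from lymphocytes and from epithelia of the male tract, fell, and its signal was 207, 236 and 353 in the wildtype mice and 148, 112 and 104 in the transgenic mice. The groups did not overlap and the transgenic mice of 8 and 9 weeks lay near the floor. The fall was 2.16-fold (log2 -1.11, SE 0.22, limma adjusted p = 0.0120), and without the 8-week transgenic mouse it did not pass (log2 -1.06, limma adjusted p = 0.0570). A second Adam28 probe lay near the floor in all mice and differed by -0.13 (limma adjusted p = 0.411). Adam15, a disintegrin protease of endothelium and epithelium, fell 1.43-fold (log2 -0.52, SE 0.088, limma adjusted p = 0.00687). For this gene, the signal was 689, 675 and 593 in the wildtype mice and 446, 459 and 460.2 in the transgenic mice. The spread within either genotype was small beside the gap, and the fall passed with any 1 mouse left out. Its second probe lay near the floor, with a log2 difference of -0.13 (limma adjusted p = 0.282).

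The main sheddases did not pass. Adam17, which releases TNF and ligands of the EGF receptor, had signals of 387, 431 and 424 in wildtype and 485, 471 and 442 in transgenic mice. Every transgenic mouse lay above every wildtype mouse by a small margin, and the log2 difference was 0.17 (95% interval -0.03 to 0.37, limma adjusted p = 0.201). Adam10, the protease of Notch receptors, was near the floor with a log2 difference of 0.20 (limma adjusted p = 0.137). Adam9 overlapped between genotypes (log2 -0.19, limma adjusted p = 0.326), as did Adam8 (log2 -0.29, limma adjusted p = 0.367), a protease of myeloid cells. Adam19, a sheddase of neuregulin, was lower in all transgenic mice (log2 difference -0.33, limma adjusted p = 0.0842), and Adam12 lay near the floor (log2 0.057, limma adjusted p = 0.834).

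ADAMs without a working active site were dim. Adam23, which binds the secreted protein LGI1 at synapses, fell 1.30-fold from a low signal. Its signal was 138, 126 and 125 in the wildtype mice and 114, 89.3 and 96.1 in the transgenic mice, all of the latter near the floor (log2 -0.38, SE 0.11, limma adjusted p = 0.0454). The call was lost with each mouse but the 7-week transgenic mouse left out (log2 -0.41 to -0.31, limma adjusted p = 0.0751 to 0.162). Its relative Adam22 differed by -0.058 (limma adjusted p = 0.686). A dimmer Adam22 probe, near the floor in both genotypes, differed by log2 -0.24 without overlap of the genotypes (limma adjusted p = 0.139). The 4 measured genes known chiefly from testis, Adam4, Adam5, Adam24 and Adam32, lay near the floor in both genotypes, and 0 of 4 passed by limma (1 at an unadjusted p below 0.05). Of all genes 22.9% passed and 37.2% had an unadjusted p below 0.05. The lowest p was that of Adam5, a gene of the male germ line (log2 -0.23, limma adjusted p = 0.0867; 0.0392 with the repeat number as a block), and then that of Adam32 (log2 -0.14, limma adjusted p = 0.335).

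Among the 11 ADAMTS and ADAMTS-like genes, 1 rose and 2 fell (27.3%, beside 22.9% of all genes), all by small amounts from dim signals. Adamts16, a protease known from kidney and gonads, rose 1.33-fold (log2 0.41, SE 0.08, limma adjusted p = 0.0116). For Adamts16, the signal was 105, 103 and 108 in the wildtype mice and 147, 132 and 141 in the transgenic mice. The mouse means of each genotype were tight, the groups did not overlap, and the rise passed with any 1 mouse left out. Repeat 2 was lower than repeat 1 in each transgenic mouse, by log2 -0.30, -0.44 and -0.11. The rise passed in 16 of 20 alternatives, and not with repeat 2 arrays alone or without both mice of any 1 age. Adamts15, a proteoglycanase that cuts versican, fell 1.25-fold (log2 -0.32, SE 0.09, limma adjusted p = 0.0444), and its signal was 166, 178 and 160.4 in the wildtype mice and 125, 141 and 140.4 in the transgenic mice. This call was lost with any 1 mouse left out (log2 -0.35 to -0.26, limma adjusted p = 0.0712 to 0.106). Adamtsl2, a matrix protein that binds fibrillin, fell 1.26-fold (log2 -0.34, SE 0.094, limma adjusted p = 0.0421), with signals of 113, 135 and 121 in wildtype and 102, 93.5 and 95.7 in transgenic mice. That call was lost with each mouse but the 7-week transgenic mouse left out (log2 -0.40 to -0.27, limma adjusted p = 0.0520 to 0.15).

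The aggrecanases, which cut the large proteoglycans aggrecan and versican, did not pass. For Adamts5 the signal was 182, 184 and 203 in the wildtype mice and 206, 295 and 277 in the transgenic mice. All transgenic mice lay higher, that of 7 weeks only just, with a log2 difference of 0.44 (SE 0.14, limma adjusted p = 0.0678). Adamts4 had signals of 188, 387 and 251 in wildtype and 184, 235 and 225 in transgenic mice. Its 8-week wildtype mouse was the highest, the groups overlapped, and the log2 difference was -0.30 (limma adjusted p = 0.429). Adamts1, a protease induced at ovulation, had signals of 149.8, 227 and 108 in wildtype and 139, 217 and 177 in transgenic mice. It was highest in the 8-week mouse of either genotype, and the 95% interval of the log2 difference was wide (-0.46 to 0.83). Adamts8 differed by 0.036, Adamts7 by 0.066, Adamts17 by 0.069 and Adamtsl4 by 0.062 on the log2 scale, none of which passed. Adamts19 is described with the repeats.

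Of the 4 TIMP inhibitors 2 fell, beside 12.5% of all genes. Timp4 fell 7.95-fold (log2 -2.99, SE 0.25, limma adjusted p = 4.60e-04), and its signal was 1062, 957 and 1435 in the wildtype mice and 205, 130.0 and 109 in the transgenic mice. Timp3, which is bound to the matrix and inhibits ADAM17 and the aggrecanases as well as MMPs, fell 1.67-fold (log2 -0.74, SE 0.12, limma adjusted p = 0.00592). For Timp3 the signal was 3909.9, 3526 and 3695 in the wildtype mice and 2319, 1871 and 2513 in the transgenic mice, with no overlap, and the falls of both passed in all 21 alternatives. Timp1 had signals of 346, 474 and 755 in wildtype and 265, 347 and 247 in transgenic mice. The 8-week transgenic mouse lay level with the lowest wildtype mouse, and the log2 difference was -0.82 (limma adjusted p = 0.0742; 0.0152 with the repeat number as a block, and 0.0290 without the 7-week wildtype mouse, at log2 -1.08). For Timp2, which helps Mmp14 to activate Mmp2, the log2 difference was -0.40 (limma adjusted p = 0.145; 0.0462 without the 9-week transgenic mouse, at log2 -0.56). Reck, a membrane-bound inhibitor, had signals of 495, 404 and 396 in wildtype and 434, 378 and 398 in transgenic mice, with a log2 difference of -0.093 (95% interval -0.36 to 0.17). In the list of 14 inhibitors and related genes, 10 were measured, of which 1 rose, the proteoglycan gene Spock1 (log2 0.50), and 2 fell (30%, beside 22.9% of all genes), with a median of -0.42. Spock1 did not pass without the 7-week wildtype mouse or the 8-week transgenic mouse (log2 0.47 to 0.48, limma adjusted p = 0.0505 to 0.0645).

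**Figure D3:**
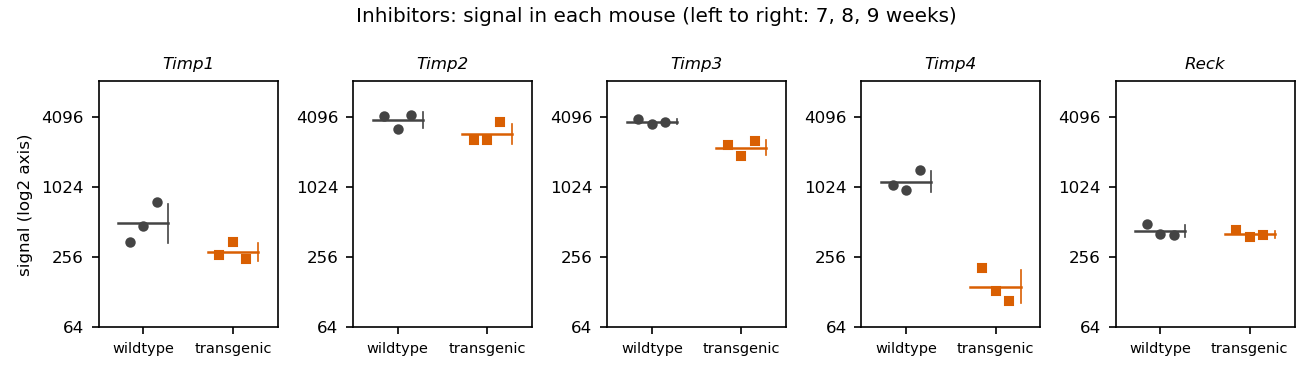
Signal of each mouse (log2 axis) for the 4 TIMP genes and Reck; dots are wildtype and squares transgenic mice, from left to right at 7, 8 and 9 weeks, with the mean of the log2 signals as a line and 1 SD as a bar (n = 3). Timp3 and Timp4 are lower in each transgenic mouse, and Reck overlaps between genotypes.

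Of 16 measured activators and partners of the zymogens, 1 rose and 1 fell (12.5%, beside 22.9% of all genes, median log2 0.0050). Bsg, an inducer of MMPs, was lower (log2 -0.40, limma adjusted p = 0.0552) and passed with the repeat number as a block (limma adjusted p = 0.0127). St14, the epithelial protease matriptase, rose 1.79-fold (log2 0.84, SE 0.15, limma adjusted p = 0.00902), and Klkb1, plasma kallikrein, fell (log2 -0.46, limma adjusted p = 0.0473), a call lost with any mouse but the 8-week wildtype mouse left out (log2 -0.49 to -0.35, limma adjusted p = 0.0854 to 0.136). Of 19 measured matrix substrates 0 rose and 3 fell (15.8%, beside 22.9% of all genes, median 0.0085). With the repeat number as a block the laminin chain Lamb1 (log2 -0.40, limma adjusted p = 0.0891; 0.0328 with the block) and the proteoglycan Bgn (log2 -0.41, limma adjusted p = 0.0641; 0.0303 with the block) passed as lower too. The 3 that fell without the block were the small proteoglycans Lum (log2 -0.98) and Dcn (-0.50), both also fibroblast markers, and the basement membrane proteoglycan Hspg2 (-0.45). Lum did not pass without the 7-week or 8-week wildtype mouse, or without the 8-week or 9-week transgenic mouse (log2 -0.94 to -0.75, limma adjusted p = 0.0564 to 0.113), nor Dcn without the 8-week transgenic mouse (log2 -0.49, limma adjusted p = 0.0676). The count of substrates that rose was 0 by limma, with 7 of the 19 at an unadjusted p below 0.05 in either direction. Among 19 measured membrane substrates of ADAMs, 2 rose, the adhesion molecule Vcam1 (log2 1.26, limma adjusted p = 0.00735) and the chemokine Cxcl16 (log2 0.57). The hyaluronan receptor Cd44 (log2 -0.86) and the Notch ligand Jag1 (log2 -0.44) fell, so that 21.1% were called (beside 22.9% of all genes, median 0.038). Cxcl16 did not pass without the 7-week or 9-week wildtype mouse, or without the 7-week or 8-week transgenic mouse (log2 0.47 to 0.53, limma adjusted p = 0.0847 to 0.146). Jag1 did not pass without the 7-week or 9-week wildtype mouse or the 8-week transgenic mouse (log2 -0.41 to -0.39, limma adjusted p = 0.0562 to 0.0731), nor Cd44 without the 9-week transgenic mouse (log2 -0.85, limma adjusted p = 0.0547). The call of Cd44 was also lost with the mean of its 4 probes. Of 11 measured zinc metalloproteases of other families, 1 rose and 4 fell (45.5%, beside 22.9% of all genes, median -0.091). The aminopeptidase Anpep rose 2.04-fold (limma adjusted p = 0.00968), a call lost in 3 of 21 alternatives, among them repeat 1 arrays alone. The carboxypeptidase Cpd and the endopeptidase Mme (neprilysin) fell 2.77-fold and 2.38-fold (log2 -1.47 and -1.25, limma adjusted p = 0.00114 and 0.00136). Cpd was lower in repeat 2 in every mouse, by log2 -2.21 to -0.89 in wildtype and -0.80 to -0.29 in transgenic mice, and passed in all 21 alternatives. The others that fell were the carboxypeptidase Cpz (log2 -0.97, limma adjusted p = 0.00762) and the procollagen C-proteinase Bmp1 (log2 -0.44, limma adjusted p = 0.0398; 0.0641 with the repeat number as a block, so that its call was lost).

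Whether the genotype difference of these genes changed with age was asked with a genotype by age term. By limma 0 of the 41 genes passed, with 1 at an unadjusted p below 0.05, and 0 of all named genes passed (0% called, 7.13% at an unadjusted p below 0.05). The lowest p was that of Adam28. Its log2 difference was -0.48, -1.08 and -1.77 at 7, 8 and 9 weeks (interaction -0.64 per week, SE 0.13, unadjusted p = 0.00330, limma adjusted p = 0.755). The signal was higher at each later age in the wildtype mice and lower in the transgenic mice. Adam33 differed by 0.54, 0.53 and 1.51 (limma adjusted p = 0.755 for the interaction) and Adam9 by -0.37, -0.25 and 0.061 (limma adjusted p = 0.761). With 1 mouse of each genotype at an age, single-age values carry no test. For an age trend shared by the genotypes, limma also called 0 of the 41 genes, with 3 at an unadjusted p below 0.05, and 0 of all genes (0% called, 8.97% at an unadjusted p below 0.05). These 3 were Mmp13 (log2 0.28 per week), Adamts19 (-0.46) and Mmp23 (-0.37), each with a limma adjusted p of 0.589.

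**Figure D4:**
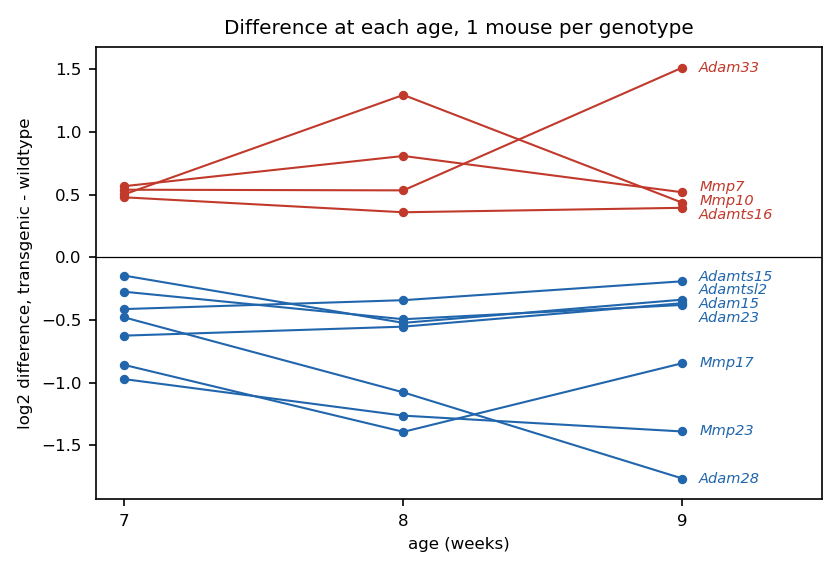
Log2 difference between the transgenic and the wildtype mouse of each age (y axis) at 7, 8 and 9 weeks (x axis) for the 11 genes that passed; lines join different mice. Adam28 goes from -0.48 to -1.77 and Adam33 from 0.54 to 1.51, while Mmp10 and Mmp17 are farthest from 0 at 8 weeks.

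The 2 arrays of a mouse did not always give the same level. In the 7-week transgenic mouse 3 of the 41 genes differed between repeats by more than 1 on the log2 scale, and in the other 5 mice none did. Of all named genes, 2.15% differed by more than 1 in the 7-week transgenic mouse and 0.30% to 0.91% in the other mice. Mmp11 had a signal of 206 in repeat 1 and 494 in repeat 2 of the 7-week transgenic mouse. For Mmp2 the pair was 1492 and 3231. Adamts19, a protease gene expressed in the ovary, had 195 and 397. All 3 genes were higher in repeat 2, by log2 1.26, 1.11 and 1.03. The 5 measured ovary markers summed to 684 in repeat 1 and 2417 in repeat 2 of this mouse, and to 479 to 609 on the arrays of the other mice. The 10 measured neutrophil markers summed to 32372 and 50075. Among them S100a8 was higher in repeat 2 by log2 2.86, and in the 8-week wildtype mouse by 2.33. The part of ovarian tissue or neutrophils in these values was not tested. Over the 6 mice Adamts19 was 254, 265 and 148 in wildtype and 279, 120.1 and 133 in transgenic mice, with overlapping groups and a limma adjusted p of 0.481 for genotype. Adam9 was lower in repeat 2 in all 6 mice, and so was Mmp7, 1 of the genes that rose (log2 -0.63 to -0.13). Repeat 2 of Mmp7 in the 9-week transgenic mouse (129) lay below repeat 1 in the 9-week wildtype mouse (131). Of the genes that fell, Adam15 (log2 0.22 to 0.53) and Adam28 (log2 0.031 to 0.55) were higher in repeat 2 in all 6 mice.

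**Figure D5:**
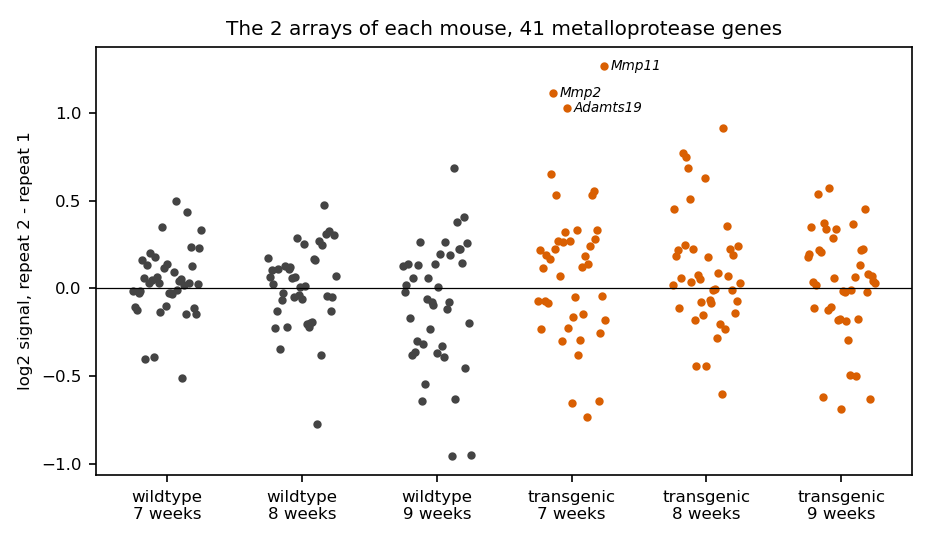
Log2 signal of repeat 2 minus repeat 1 (y axis) for the 41 genes in each of the 6 mice (x axis); each point is a gene, in the same order in each mouse. The points of Mmp11, Mmp2 and Adamts19 lie above 1 in the 7-week transgenic mouse.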

How the data were processed

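Per the labels' protocols, total RNA of fallopian tubes was primed from poly(A) tails, labelled with biotin and hybridised to 1-colour Illumina arrays. GenomeStudio 1.6.0 is named in the submitters' processing notes. The deposited values are a score that, judged by the values, was standardized for each array, with scale and centre not stated. The table holds the columns of 12 arrays, whose medians ran from 0.0110 to 0.222. One scale and 1 centre per array, on a log scale, gave back signals with 1 decimal for 100% of values on each of the 12 arrays (tolerance 0.01 of the last digit). Whether background had been subtracted is not given. A second, non-normalized table has 24 columns whose names match no single sample, and none was used.

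Of 25697 probes, 9033 were blank on all arrays, 0 on some, and 16664 were tested. Genes were named from the platform annotation, 15687 probes with 1 symbol, 0 with several and 977 with none; 15679 matched a current Entrez entry and 0 symbols changed. A gene is represented by its brightest probe; of the 41 genes 8 had several. Signals were quantile-normalized, put on the log2 scale without background subtraction or offset, and averaged over the 2 arrays of each mouse. limma 3.58.1 (R 4.3.3) fitted all probes with lmFit and eBayes, two-sided, with Benjamini-Hochberg adjustment over all probes, a threshold of 0.05 and 4 residual degrees of freedom for genotype, 2 for the interaction and 3 for age. Nothing states that the 2 arrays of a mouse come from separate extracts, so the mouse was the replicate (n = 3). The deviations of same-numbered arrays from their mouse means correlated between all 15 pairs of mice (r = 0.11 to 0.64 across probes), so the repeat number pairs the arrays; the fit with it as a block, and the mouse as a random block, is given where it changes a call.

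The scripts were checked on simulated data. The genes and lists were chosen with earlier results of these data known. Genes named by rule were the members past the threshold, the 2 lowest p of a group without one, Timp1 to Timp4 and Reck, and in each list of partners up to 2 in each direction. The bound for signals near the floor was chosen after the data were seen. Alternatives covered normalization, background, scale, dim probes, weights, blocks, repeats, mice, probes and the variance prior. The other genes of each group are given with their values as well. Promoter sequences come from RefSeq. Scripts used Python 3.11.15, numpy 2.4.6, pandas 2.3.3 and matplotlib 3.10.9. The number of mice limits the precision.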

Additional observations from a re-analysis of the deposited data

Results flagged for a closer look

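The 41 genes were searched for repeat differences of 1 sign in all wildtype mice and the other sign in all transgenic mice. Only the brighter of the 2 Mmp1a probes met this, and the share of all genes that would meet it was not counted. Repeat 2 minus repeat 1 was -0.40, -0.34 and -0.36 on the log2 scale in the wildtype mice of 7, 8 and 9 weeks. In the transgenic mice it was 0.17, 0.25 and 0.22. The mean of the transgenic mice was higher by 0.58, and this difference was not tested. The second Mmp1a probe did not show this, with 0.016, 0.11 and -0.097 in the wildtype and -0.06, -0.037 and 0.091 in the transgenic mice. Groups of 3 mice were too small for a check of single outlying mice.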

How the results depend on the processing

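The counts of 4 higher and 7 lower genes depended on which mice entered. With 1 mouse left out, from 2 to 4 genes were higher and from 2 to 8 lower. The called share then ran from 9.76% to 29.3% of the 41 and from 11.6% to 23.8% of all genes. Without both mice of 7 weeks 6 genes were called, 3 of them lower (14.6% of the 41 beside 16.6% of all genes). Without both of 8 weeks 0 were higher and 1 lower by limma (2.44%, with 12 genes at an unadjusted p below 0.05 in either direction). Without both of 9 weeks 1 was higher and 2 lower (7.32%). Array quality weights gave 7 higher and 12 lower genes (46.3% of the 41 beside 41.2% of all genes). Of all genes 8.75% were called without both 8-week mice, 10.5% without both 9-week mice, 11.6% when the 8-week transgenic mouse was left out and 14.8% when the 9-week wildtype mouse was. Repeat 2 arrays alone gave 1 higher and 5 lower genes (14.6% beside 16.5% of all genes). An intensity trend in the variance prior gave 6 higher and 11 lower, 41.5% of the 41 beside 23.1% of all genes. Without the probes below the median signal 14 of the 41 genes were left, of which 2 were higher and 3 lower (35.7% beside 27.2% of all genes left). With the replicate block 5 were higher and 10 lower (36.6% beside 28.4% of all genes), and all 11 calls were kept; the 4 gained were Mmp3, Mmp9, Mmp12 and Adam5. In the other lists it changed the call of Timp1, Bsg, Lamb1, Bgn and Bmp1. It changed no other call of a member. Median scaling gave 5 and 10 (36.6% beside 23.6% of all genes), and normexp with offset 50 gave 5 and 8 (31.7% beside 23.4%). The deposited values gave 4 and 5 (22% beside 22.7% of all genes) and the age block 4 and 6 (24.4% beside 21.3%). Repeat 1 arrays alone gave 4 and 9 (31.7% beside 18.9% of all genes). No called member changed sign in any alternative run. Of the called members, Mmp17 alone passed in all 21 run for it. Mmp7 passed in 19 of 20 and Adam15 in 19 of 21, while Adamts15 passed in 6 of 20 and Adamtsl2 in 9 of 20. The interaction and the age trend gave 0 members by limma in each of the 6 alternatives run, with 1 and 3 at an unadjusted p below 0.05 in the reported fits. The deviations of the 2 genotypes correlated at 0.32, 0.096 and -0.071 at 7, 8 and 9 weeks, so age was not taken to pair the mice. Mmp2 passed as lower in 7 of 21 alternatives, among them the age block (limma adjusted p = 0.0269), median scaling (0.0340), array quality weights (0.00399) and repeat 1 arrays alone (0.0314). Leaving out repeat 2 of the 7-week transgenic mouse was chosen after the data were seen. The signal over background limits the genes near the floor, 12 in both genotypes and 3 and 4 in one. The p-values of the reported fits measure the spread between 3 mice per genotype. Those with the repeat number as a block come from the 12 arrays. That fit takes 1 correlation (0.31) for the arrays of a mouse, so its p-values also draw on the spread between the 2 arrays of a mouse.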
